A study of Rattus norvegicus with 12 samples.

Results

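The 200 brightest circular RNAs (circRNAs) of the rat kidney are described here across 4 inbred strains. An array probe was eligible if the scanner software marked it well above background on all 12 arrays, which held for 9582 of the 14145 circRNA probes (67.7%). Eligible probes were ordered by a score, the mean over the 12 arrays of the log2 signal minus the 75th percentile of circRNA signals on the same array, and the 200 were chosen by the highest score. They made up 1.41% of all circRNA probes. Scores, levels, ranks and shares of signal were the values that chose these circRNAs, so they are given as a description with no test. No difference between strains entered the choice, so strain differences were tested.

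Whole kidneys came from male rats killed at 57 days of age, 3 from each strain, and each kidney RNA was hybridised to 1 one-colour array. Hypertension models were the Dahl salt-sensitive rat (S) and the SHR, the spontaneously hypertensive rat. The normotensive strains usually set beside them were the Dahl salt-resistant rat (R) for S and the Wistar Kyoto rat (WKY) for SHR. All 4 groups had the same low-salt diet with 0.3% NaCl from weaning, no drug and no engineered allele, so the groups differed by strain alone in the labels. In whole kidney, fewer cells of a type and less RNA per cell cannot be told apart. The label of kidney was not checked against cell type markers, because the circRNA probes are known here by probe ID only, without host gene, position or sequence.

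A circRNA is a closed ring made by back-splicing, in which a downstream splice donor joins an upstream splice acceptor, usually within exons of a protein-coding gene. Having no free ends, it resists exonucleases, turns over slowly and can build up in tissues whose cells seldom divide. RNase R, an enzyme that degrades linear RNA from its 3′ end, was used on the total RNA before labelling so that rings were left in excess. A bright probe on such an array can reflect an abundant ring, a probe that binds well or RNA that survived the enzyme, and its signal is therefore not a molecule count. For the same reason the order of brightness is an order of probe signals, not of abundance.

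The arrays were not alike in ways the strain labels did not account for. The array of S rat 1 had the lowest 75th percentile, 6.22 on the log2 signal scale against 7.02 to 8.15 on the other 11 arrays. On it 70.3% of circRNA probes were well above background, against 83.9% to 91.1%. It was not the dimmest in summed circRNA signal, at 5269156 units against 2877461 in SHR rat 3. The arrays also carried probes for messenger RNAs, linear RNAs that RNase R should remove, and the mean level of 35 of them relative to the circRNA 75th percentile was taken as a guide to leftover linear RNA. It was -0.90, 0.13 and -0.23 in the WKY rats, and -0.13 and -0.42 in SHR rat 1 and SHR rat 3. It was -1.79 in SHR rat 2, between -2.12 and -1.81 in S and between -1.76 and -1.74 in R. SHR rat 2 thus stood with S and R and apart from its own strain. By scan, 1 slide held all S and R rats and WKY rats 1 and 2, and the other held WKY rat 3 and all SHR rats. S and SHR were never on the same slide.

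The scores ran from 8.95 for ASCRPR009250 down to 4.43, with a median of 5.46, which put the brightest probe 22.8-fold above the dimmest of the 200. The boundary was not a gap. ASCRPR004876, ASCRPR004645 and ASCRPR001869 lay just inside it at 4.44, 4.44 and 4.43, and ASCRPR001312, ASCRPR007077 and ASCRPR007416 just outside at 4.42, 4.41 and 4.41. No probe that failed the background criterion on some array scored above the lowest of the 200. Raw signals of the 200 lay between 152.9 and 151373 units, below the scanner's saturation value of 778195, and none of their spots was flagged as an outlier. Of the 200, 30 carry a probe ID next to that of another, such as ASCRPR006555 and ASCRPR006556. Whether such pairs share a host gene or sequence is not known here, so the 200 are not 200 independent measurements.

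The 200 circRNAs held about as much signal as all other circRNA probes together. Their share of the summed circRNA signal was 49.3% ± 6.54 (SD, n = 12) and ranged from 39.6% to 61.6%. It was 61.6%, 49.0% and 56.2% in the 3 S rats (55.6% ± 6.32, SD, n = 3) and 51.4%, 51.5% and 52.2% in the R rats (51.7% ± 0.45). In SHR it was 39.8%, 53.2% and 39.6% (44.2% ± 7.79), and in WKY 46.7%, 42.8% and 47.3% (45.6% ± 2.47). The R rats agreed closely among themselves, while SHR rat 2 lay above all WKY, R and other SHR rats and inside the S range. Without S rat 1 and SHR rat 2 the mean share over the remaining arrays was 47.7%.

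**Figure D1:**
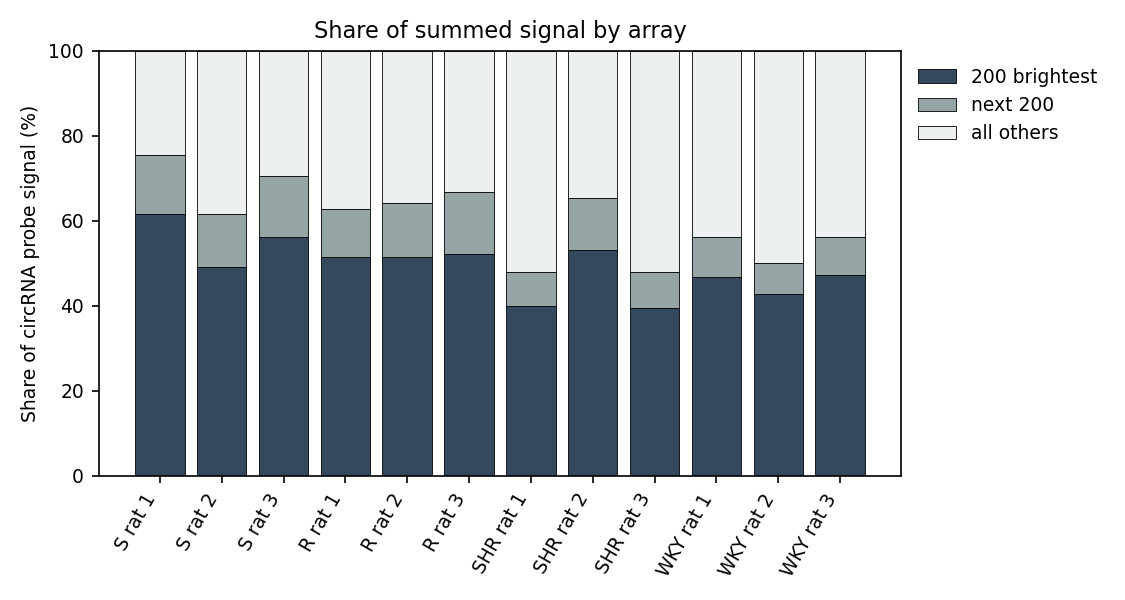
Share of the summed circRNA probe signal (%, vertical axis) on each of the 12 arrays, split into the 200 brightest circRNAs, the next 200 by score and all other circRNA probes. The 200 held between 39.6% and 61.6%, and the next 200 between 7.21% and 14.5%.

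Signal was concentrated within the 200 as well. The 10 with the highest score held 9.83% ± 0.99 (SD, n = 12) of all circRNA signal, and at least 8.53% on every array. ASCRPR009250, the brightest, alone held 1.05% to 2.16%. The 200 circRNAs next in order held 11.1% ± 2.61. The number of probes needed to reach 50% of the circRNA signal varied more than the share did. It was 63, 192 and 95 in S, 176, 158 and 138 in R, 376, 148 and 384 in SHR, and 237, 288 and 213 in WKY. S rat 1 was the most concentrated array and SHR rats 1 and 3 the least.

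Because a share is largest for the arrays that chose the probes, the choice was repeated with each strain left out and read in that strain. The 200 chosen without S shared 187 probes with the full set and held 53.1% ± 4.37 (SD, n = 3) of the signal in S. Without R, 194 were shared, with 51.0% ± 0.27 held in R. Without SHR, 192 were shared, with 43.4% ± 9.43 held in SHR, and without WKY, 188 were shared, with 43.4% ± 2.66 held in WKY. Shares in a strain that took no part in the choice were below those of the full set in all 4 strains, by less than the SD between rats in S, SHR and WKY but not in R. Taking on each array its own 200 brightest probes instead gave 41.6% to 69.5%.

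Ranks, counted from 1 for the brightest of all 14145 circRNA probes on an array, were steady at the top and loose toward the boundary. Of the 200 circRNAs, 106 (53%) ranked among the 200 brightest on every one of the 12 arrays. This held for 48 of the first 50 by score, 88 of the first 100 and 18 of the last 100. On single arrays 153, 165 and 158 of them were in the top 200 in S, 175, 174 and 156 in R, 151, 173 and 156 in SHR and 171, 142 and 164 in WKY. A rank of 400 or better on all arrays was reached by 175, and of 1000 or better by 196. Over all arrays, 372 probes entered a top 200 at least once, and 54 of these did so on 1 array only.

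**Figure D2:**
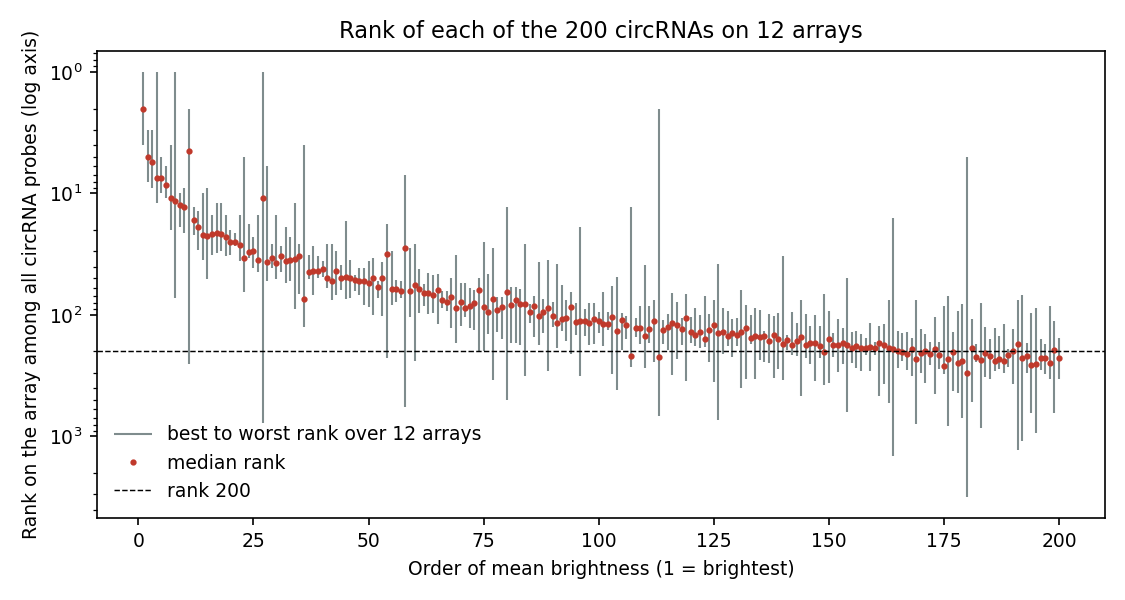
Rank of each of the 200 circRNAs among all circRNA probes (vertical log axis, 1 = brightest), in order of score on the horizontal axis. Points are medians and lines run from best to worst rank over 12 arrays. Most lines are short on the left, and 106 of the 200 stay above the dashed line at rank 200, while a few fall past rank 1000.

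The span between best and worst rank had a median of 97 places over the 200, of 7.5 places over the first 10, of 48 over the first 100 and of 167 over the last 100. ASCRPR009250 ranked 3, 1 and 3 in S, 2, 4 and 3 in R, 2, 2 and 2 in SHR and 3, 2 and 1 in WKY, the narrowest span of all. ASCRPR013357 stayed between ranks 3 and 8, ASCRPR006555 between 3 and 9, ASCRPR002961 between 5 and 10, and ASCRPR006556 between 6 and 11. These 5 were in the top 11 on all arrays of all strains. The rest of the first 10 were ASCRPR005079, between ranks 1 and 12, ASCRPR012532, between 4 and 20, ASCRPR008843, between 10 and 19, ASCRPR009859, between 9 and 21, and ASCRPR000437, between 1 and 73.

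ASCRPR009250 had levels of 10.46, 8.55 and 9.57 in S, 8.58, 8.68 and 8.87 in R, 8.71, 8.84 and 8.61 in SHR, and 8.52, 8.99 and 8.99 in WKY, as log2 signal relative to the 75th percentile. On this relative scale only S rats 1 and 3 stood clear of the other arrays. The 75th percentile subtracted was 6.22 and 7.23 there, against 8.15 in S rat 2. It was also low in SHR rat 3, at 7.02, and in WKY rat 2, at 7.15. The part of this subtraction in the higher levels was not tested. ASCRPR000437 was the exception among the first 10, being brightest in WKY rat 1 at 8.72 and WKY rat 3 at 8.58 and dimmest in S rat 3 at 7.03. S rats 1 and 3, where most of the first 10 were highest, were where it ranked worst, 56 and 73.

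Among the 5 circRNAs with the widest span of ranks, 4 were bright in WKY and in SHR rats 1 and 3 and dim in S rats 1 and 3. ASCRPR005854 had levels of 1.04, 3.94 and 0.23 in S, 4.61, 2.36 and 0.60 in R, 7.78, 1.75 and 7.74 in SHR, and 7.90, 8.18 and 8.19 in WKY. It ranked between 5 and 9 in WKY and in SHR rats 1 and 3, and between 227 and 3132 on the other 7 arrays. ASCRPR005579 spanned ranks 16 to 1459, ASCRPR010939 ranks 75 to 1290 and ASCRPR005195 ranks 69 to 1084, each dimmest in S rats 1 and 3. ASCRPR007809 went the other way, from rank 88 in R rat 3 to rank 934 in WKY rat 2, with levels of 6.58 and 1.91 there.

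A mean over 12 arrays passes over probes that were bright on some arrays and dim on others. ASCRPR013743, outside the 200, was the brightest of all on S rats 1 and 3 and R rats 2 and 3, and no other probe outside the 200 reached a top 10 on any array. Its levels were 11.67, 7.04 and 10.97 in S, 4.37, 8.93 and 9.93 in R, -2.80, 8.56 and -2.31 in SHR, and -1.40, -3.26 and -2.03 in WKY. It was well above background on all 12 arrays, with a score of 4.14 that put it at place 245. It was named after its values were seen.

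The order of the 200 was kept better within a strain than between strains in the median over all pairs, but not in S or SHR against their counterparts. Spearman's rho between the levels of 2 arrays, over the 200 circRNAs, is given as a description, since all points share the array platform and the choice of probes. It was 0.65 to 0.99 with a median of 0.89 over the 12 pairs of rats of the same strain, and 0.37 to 0.97 with a median of 0.67 over the 54 pairs of different strains. The 9 pairs of SHR with WKY had a median of 0.94 and the 9 pairs of S with R 0.82, both above the 0.61 of S with SHR, 0.63 of R with WKY and 0.43 of S with WKY. Within SHR the 3 pairs ran from 0.65 to 0.99, because rats 1 and 3 were alike and rat 2 was not. Pairs of the same strain shared 136 to 186 of their top 200, and pairs of different strains 119 to 183.

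The levels of the 200 went up and down together between arrays. Their median level was 6.80, 5.91 and 6.43 in S (6.38 ± 0.45, SD, n = 3), and 5.76, 5.90 and 6.40 in R (6.02 ± 0.34). In SHR it was 4.47, 5.95 and 4.53 (4.98 ± 0.84), and in WKY 5.07, 4.46 and 4.92 (4.81 ± 0.32). The S and R arrays and SHR rat 2 lay above the WKY arrays and SHR rats 1 and 3, with no overlap. S rat 1 had the highest level of all 12 arrays in 133 of the 200, and SHR rat 2 was above both other SHR rats in 188. Neither count was made for all eligible probes. A first principal component held 85.1% of the variance of the 200 over the arrays, and 180 of them had loadings of one sign on it.

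The same split of the arrays was seen in the mRNA probe levels. The 5 arrays with mRNA probe levels between -0.90 and 0.13, all of WKY with SHR rats 1 and 3, had member medians of 4.46 to 5.07 and shares of 39.6% to 47.3%. The other 7, with mRNA probe levels between -2.12 and -1.74, had medians of 5.76 to 6.80 and shares of 49.0% to 61.6%. Of the 200, 144 (72%) were lower on all 5 arrays than on any of the 7, against 14.2% of all 12438 circRNA probes tested. Another 6 (3%, against 13.2% of probes tested) were higher on all 5, namely ASCRPR010854, ASCRPR007347, ASCRPR005579, ASCRPR014057, ASCRPR005854 and ASCRPR005195. The part of leftover linear RNA in the strain differences given next was not tested. A separate fit had the mRNA probe level as a covariate. None of the 200 passed there in any comparison, and at most 0.193% of probes tested did. The mRNA probe level did not overlap between S and SHR or between R and WKY, so this fit cannot cleanly separate it from strain. Its median difference over the 200 was 0.23 for S minus SHR, with 138 of 200 higher in S. It was -0.29 for R minus WKY, with 44 higher in R, and -0.36 for SHR minus WKY, with 17 higher in SHR. The median standard errors were 0.45, 0.49 and 0.34 in that order.

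**Figure D3:**
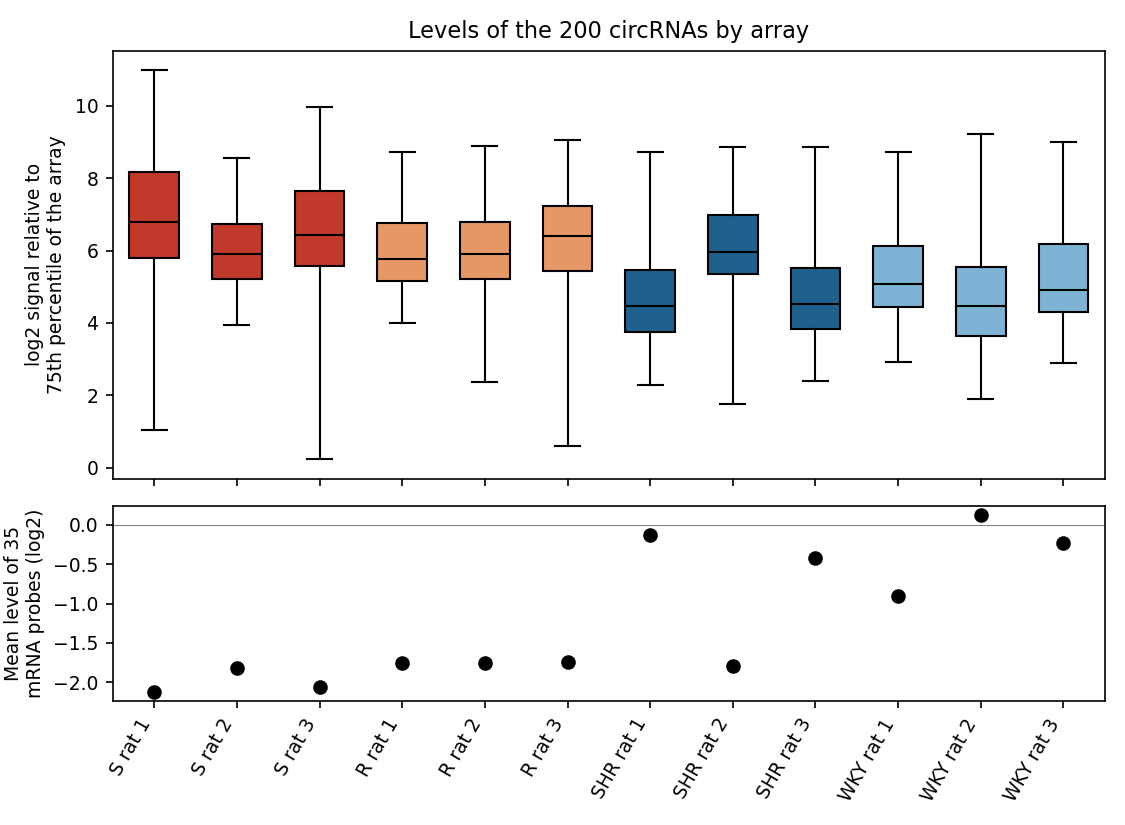
Upper panel, levels of the 200 circRNAs on each array as log2 signal relative to the 75th percentile of circRNA probes. Boxes span the quartiles with the median, and whiskers the lowest and highest. Lower panel, mean level of 35 mRNA probes on the same scale. Medians are 4.46 to 5.07 on the 5 arrays whose mRNA probes are at -0.90 or above, and 5.76 to 6.80 on the other 7.

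The spread among rats of a strain was wider for these bright circRNAs than for all eligible ones. The median SD of the log2 level over 3 rats was, for the 200, widest in SHR at 0.94, then 0.62 in S, 0.41 in WKY and 0.33 in R, against 0.33, 0.47, 0.25 and 0.24 for all 9582 eligible probes. In SHR most of that spread was rat 2 against rats 1 and 3. The next 200 by score were close to the first, at 0.82, 0.52, 0.41 and 0.38.

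Strain means ordered the 200 in a lopsided way. The highest of the 4 means was that of S in 150, of R in 31, of WKY in 19 and of SHR in none. The lowest was that of WKY in 130, of SHR in 47, of S in 18 and of R in 5. These counts were not made for all probes tested, so they are not shown to be particular to the 200. All 200 passed the filter for testing, and limma's moderated test with Benjamini-Hochberg adjustment over all 12438 probes tested, at an adjusted p under 0.05, called 58 (29%) different among strains, against 14% of all probes tested. Of the next 200 by score, 61 (30.5%) were called, so the excess was not particular to the 200. This excess over all probes tested depended on the scaling. Quantile normalization called 26 (13%) against 14.2% of probes tested, and 38 (19%) were called in the deposited table, against 15.5%. The excess also depended on single rats. Leaving out S rat 2 gave 155 (77.5%, against 47.1% of probes tested) and leaving out SHR rat 2 gave 162 (81%, against 30.9%). Leaving out S rat 3 gave 0 against 1.77%, and leaving out S rat 1, WKY rat 2 or WKY rat 3 gave 2 (1%) each, against 2.82%, 2.64% and 2.31%. For the other rats the count lay between 8 and 25 (4% to 12.5%), against 3.25% to 6.45% of probes tested.

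The comparison of each hypertensive strain with its normotensive counterpart, the usual question put to these strains, gave no call. For S against R, limma called none of the 200, with 0.105% of probes tested called. The median difference was 0.40 on the log2 scale, 1.32-fold, against 0.03 over all probes tested, 153 of the 200 had the higher mean in S, and the smallest adjusted p was 0.26. The sign of that median was not stable, as it was -0.064 with quantile normalization and -0.056 in the deposited table, each with 92 of 200 higher in S. With normexp background correction it was 0.18, below the 0.22 of all probes tested, and without S rat 1 it was 0.16. At an unadjusted p under 0.05 there were 11 of the 200, against 14.4% of probes tested. Only 2 of the 200 had 3 S values that did not overlap the 3 R values, against 13.9% of probes tested. Without S rat 2 limma called 40 (20%), below the 28.5% of all probes tested that it called in the same fit. For SHR against WKY, limma called none, with 0.0965% of probes tested called. The median difference was 0.08, and its sign changed with single rats. It was -0.45 without SHR rat 2 (19 of 200 higher in SHR) and -0.11 without WKY rat 2, and 0.36 and 0.33 without SHR rat 1 and SHR rat 3, 0.23 without WKY rat 1 and 0.15 without WKY rat 3. None had an unadjusted p under 0.05, against 1.97% of probes tested, and 4 were without overlap, against 9.29% of probes tested. The difference between the S minus R and the SHR minus WKY changes called none of the 200 (0.0884% of probes tested). At an unadjusted p under 0.05 it had 7, against 5.19% of probes tested. These figures do not show that levels were equal, as the median standard error of each strain difference was 0.48 on the log2 scale.

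Among the strain pairs tested, only S against SHR gave calls within the 200 in the main setting. S against WKY and R against SHR were not tested, and for S against WKY only a median difference within 1 slide is given below. For S against SHR limma called 90 of the 200 (45%), against 18.8% of all probes tested, 86 higher in S (9.68% of probes tested) and 4 lower (9.11%). The median difference over the 200 was 1.34 on the log2 scale, 2.53-fold, with quartiles of 0.85 and 1.82, against -0.01 over all probes tested. In 33 of the 200 (16.5%) the S and SHR values did not overlap, against 24.5% of probes tested. Among these were 29 of the 86 called higher in S and 3 of the 4 called lower. Calls were spread over the range of brightness, with 47 among the first 100 by score and 43 among the last 100, but only 2 among the first 10. Of the next 200 circRNAs, 73 (36.5%) were called, and their median difference was 0.95.

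The size of the S minus SHR difference and the number of calls depended on how the arrays were scaled. So did the direction of the difference over the 200 as a whole. In the main setting 179 of the 200 were higher in S, as were 179 with normexp and 181 with median scaling. This fell to 100 with quantile normalization, 116 in the deposited values and 92 when scaled to the median of the 200. The 90 called circRNAs were picked for their differences on these same arrays, so keeping their sign after rescaling is no independent check. Of the 90, the difference kept its sign in 81 with quantile normalization, in 87 in the deposited table, in 82 when scaled to the median of the 200, and in all 90 with normexp and with median scaling. With quantile normalization, which gives every array the same distribution of signal, the median difference over the 200 was 0.0031 and limma called 33 (16.5%, against 17.9% of probes tested), 24 higher in S and 9 lower. In the authors' deposited log2 table it was 0.076, with 37 called (18.5%, against 16.8%), 29 higher and 8 lower. Scaled to the median of the 200 themselves, a setting chosen after seeing the data, 46 were called (23%, against 60.8%), 23 in each direction, and the median over all probes tested was -1.41. Of the 90 calls, 27 were shared with quantile normalization and 32 with the deposited table.

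The number of calls also changed with the slide and with single rats. S and SHR lay on different slides, so that slide and strain cannot be told apart in this comparison. With the slide as a block, an estimate that rests on WKY, the one strain on both slides, limma called none of the 200 and none of the 12438 probes tested. The median difference in that fit was 1.61, with 186 of 200 higher in S, and its median standard error was 0.91 against 0.48. The call count was also 0 without S rat 1 (2.38% of probes tested), without S rat 3 (1.86%), without SHR rat 1 (1.54%), without SHR rat 3 (1.75%) and in a fit of S and SHR alone (1.17%). In these 5 fits the median differences were 1.13, 1.27, 1.09, 1.08 and 1.34, with 176 to 180 of the 200 higher in S. The count was 153 (76.5%) without S rat 2, against 45.2% of probes tested, 163 (81.5%) without SHR rat 2, against 34.5%, and 151 (75.5%) without both S rat 1 and SHR rat 2, against 25.1%. Without single R rats it was 52, 35 and 68 for rats 1, 2 and 3, against 11.1%, 8.98% and 14.3% of probes tested. Without single WKY rats it was 42, 61 and 37, against 10.9%, 12.9% and 9.02%.

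**Figure D4:**
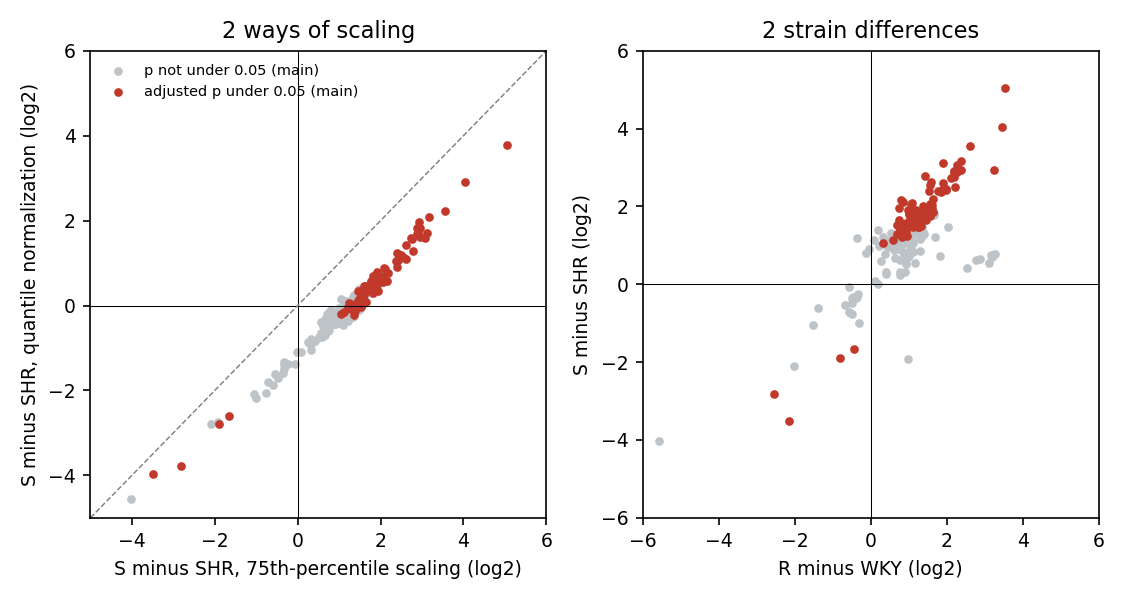
Each point is 1 of the 200 circRNAs. Left, S minus SHR difference with the 75th percentile scaling (horizontal) and with quantile normalization (vertical), both log2, with the line of equality dashed. Right, R minus WKY difference (horizontal) and S minus SHR difference (vertical), both log2. Red marks the 90 called for S against SHR. The quantile values lie below the line, with a median of 0.0031 against 1.34.

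The 5 circRNAs named as higher in S, those with the largest difference among called ones without overlap, had one profile. ASCRPR004377 had levels of 9.49, 6.90 and 8.58 in S, 6.26, 6.93 and 7.67 in R, 2.99, 6.85 and 3.00 in SHR, and 4.11, 2.67 and 3.75 in WKY. S was above SHR by 4.04 ± 0.95 (SE) on the log2 scale, with an adjusted p of 0.0251 in limma. SHR rat 2 nearly reached the lowest S rat, while SHR rats 1 and 3 lay with WKY. In rank it went from 13 in S rat 1 to 498 in WKY rat 2.

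ASCRPR006761 had levels of 7.36, 6.24 and 6.79 in S, 5.64, 5.52 and 6.18 in R, 2.73, 5.33 and 2.82 in SHR, and 4.06, 3.01 and 3.12 in WKY. All S and R values lay above all SHR and WKY values, with S above SHR by 3.17 ± 0.60 (SE) and an adjusted p of 0.0120 in limma, the smallest of the 200. ASCRPR004875 (2.94 ± 0.65, adjusted p 0.0211), ASCRPR004645 (2.94 ± 0.61, adjusted p 0.0165) and ASCRPR005696 (2.91 ± 0.60, adjusted p 0.0158) had the same order of arrays within SHR, with rat 2 far above rats 1 and 3. In ASCRPR004645 the levels were 6.58, 5.79 and 6.20 in S against 2.35, 4.99 and 2.43 in SHR. These 5 kept an adjusted p under 0.05 in limma under quantile normalization (log2 differences of 1.71 to 2.92) and in the deposited table (1.85 to 2.94), so their direction did not turn with those scalings. Among 25 alternatives each lost the call in 7 or 8, and none reversed. With the mRNA probe level as a covariate their differences were 0.95 to 1.29 and none was called, with 0.113% of probes tested called.

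The largest moderated F over all strains belonged to ASCRPR005131, ASCRPR006761, ASCRPR009172, ASCRPR004645 and ASCRPR005696, with adjusted p between 0.0129 and 0.0181 in limma. ASCRPR005131 had levels of 6.76, 5.73 and 6.38 in S, 5.01, 5.11 and 5.86 in R, 2.59, 4.97 and 2.65 in SHR, and 3.53, 2.77 and 2.90 in WKY. ASCRPR009172 averaged 7.02 ± 0.66 in the S rats, 6.04 ± 0.37 in the R rats, 4.13 ± 1.38 in the SHR rats and 3.85 ± 0.50 in the WKY rats (SD, n = 3). In both, the S mean was highest and the R mean next, and the SHR and WKY values overlapped.

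Against this common direction, 4 circRNAs were called lower in S than in SHR. ASCRPR005579 had levels of 1.82, 4.78 and 1.66 in S, 5.17, 4.44 and 2.10 in R, 5.92, 4.79 and 6.0 in SHR, and 5.75, 7.11 and 6.47 in WKY. The difference was -2.82 ± 0.88 (SE), with an adjusted p of 0.0463 in limma, and the highest S rat, at 4.78, lay next to the lowest SHR rat, at 4.79. ASCRPR010939 was lower by -1.89 ± 0.56 (adjusted p 0.0409), with levels of 2.04, 4.52 and 2.59 in S against 5.01, 4.81 and 5.0 in SHR. ASCRPR005195 was lower by -1.66 ± 0.43 (adjusted p 0.0297), with 2.36, 4.50 and 3.16 against 5.10, 4.69 and 5.23. In each, S rat 2 stood well above S rats 1 and 3 and close to SHR. These 3 lost the call in 16, 15 and 9 of 25 alternatives, and none reversed.

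The fourth, ASCRPR010854, overlapped between the strains and is named because there were only 4. Its levels were 3.13, 7.65 and 3.30 in S, 8.08, 6.97 and 5.14 in R, 8.73, 6.98 and 8.87 in SHR, and 8.62, 9.23 and 8.81 in WKY, and limma gave -3.50 ± 1.07 (SE) with an adjusted p of 0.0450. It was the brightest circRNA of all on SHR rats 1 and 3 and WKY rat 2, and ranked 774 and 644 on S rats 1 and 3. ASCRPR005854, the circRNA with the widest span of ranks, had a larger S minus SHR difference of -4.02 ± 1.51 that did not pass (adjusted p 0.075 in limma). SHR rat 2, at 1.75, lay among the S values.

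**Figure D5:**
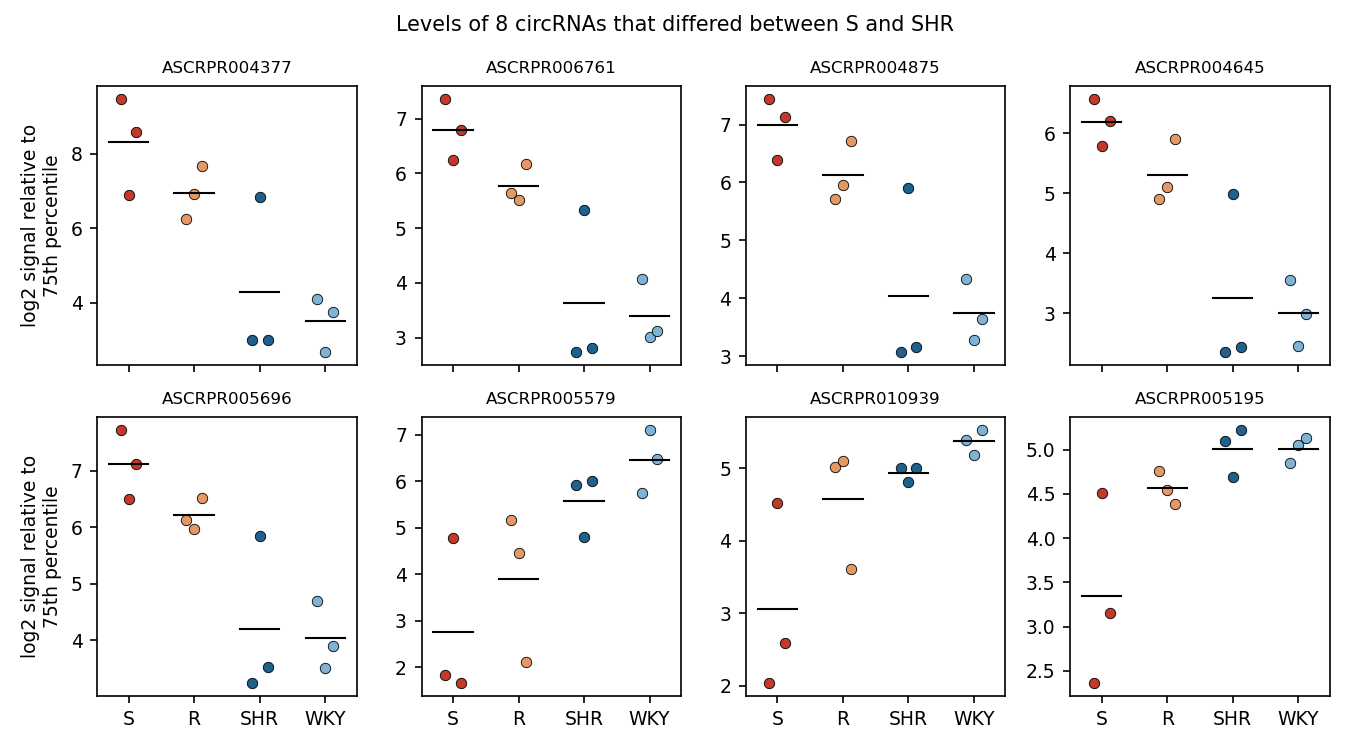
Levels of the 8 circRNAs named for S against SHR, 1 panel each, as log2 signal relative to the 75th percentile (vertical axes differ). Points are rats and bars are strain means, n = 3. In the first 5 panels SHR rat 2 lies near the S and R rats, and in the last 3 S rat 2 lies above S rats 1 and 3.

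Of the first 10 by score, ASCRPR012532 and ASCRPR009859 were called higher in S than in SHR, by 1.56 ± 0.48 and 1.53 ± 0.49 (SE) with adjusted p of 0.0450 and 0.0489 in limma. ASCRPR012532 had levels of 9.35, 8.25 and 8.96 in S and 6.65, 8.59 and 6.65 in SHR, so that SHR rat 2 passed the lowest S rat. With quantile normalization their differences were 0.22 and 0.34, and neither was called. ASCRPR009250 differed by 0.80 ± 0.39 with an adjusted p of 0.14, and by -0.10 with quantile normalization.

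For R against WKY, which share no array with S against SHR, limma called none of the 200, with 0.844% of probes tested called. The median difference was 1.02 on the log2 scale, 2.03-fold, against 0.02 over all probes tested. Over the next 200 by score it was 1.07, with 2 called (1%), so the shift was not particular to the 200. The higher mean was in R for 178 of the 200. In limma 106 had an unadjusted p under 0.05, against 25.9% of probes tested. The smallest adjusted p was 0.060. In 170 of the 200 (85%) the 3 R values did not overlap the 3 WKY values, against 47.8% of probes tested. All 86 circRNAs called higher in S than in SHR had a higher mean in R than in WKY, as had 178 of the 200 as a whole. The same count was not made for all probes called higher in S. ASCRPR006761, for one, was 2.38 ± 0.60 (SE) higher in R, with an adjusted p of 0.0638 in limma.

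The count for R against WKY turned on which arrays set the spread. A fit of R and WKY alone called 125 of the 200 (22.9% of probes tested), and the fit of all strains without SHR rat 2 called 71 (12.3%). Without S rat 2 it called 10 (5%), near the 4.58% of all probes tested, and without both S rat 1 and SHR rat 2 it called 99 (18.2%). Within the slide that held R and WKY rats 1 and 2, the median difference was 1.15 and 179 of the 200 had the higher mean in R. On the same slide S was above WKY rats 1 and 2 by a median of 1.52. On the other slide, SHR stood against WKY rat 3 at a median of -0.08. With quantile normalization the median R minus WKY difference was 0.094, and in the deposited table it was 0.21. Here too the shift shared by the 200 thus depended on the scaling. With the mRNA probe level as a covariate the median difference was -0.29, the opposite sign, with a median standard error of 0.49.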

How the data were processed

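Scanner intensities were read from the deposited one-colour files of 12 arrays, 1 per rat. Per the labels' protocols, total RNA was treated with RNase R and labelled with Cy3 by random priming. Per the file headers, Agilent Feature Extraction 11.0.1.1 gave the background-subtracted and detrended signal intensity used here, with no normalization between arrays. Limma is named in the submitters' processing notes with no stated use. The authors' deposited table of log2 values, whose centring and filter are not stated, was an alternative only. It holds 12846 circRNA probes, all 200 described here among them.

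Each array's log2 intensities had that array's 75th percentile over circRNA probes subtracted. Control spots were dropped, and 40 circRNA spots flagged as outliers were set to missing. A probe was tested if well above background on all 3 arrays of a strain and with at least 2 values in every strain, which kept 12438 of 14145. The linear model had 1 mean per strain over all 12 arrays and 8 residual degrees of freedom, and was fitted by lmFit and eBayes of limma 3.58.1 under R 4.3.3, with Benjamini-Hochberg adjustment within each contrast and a threshold of 0.05. The script was tested on simulated data. In the main fit p-values rest on a moderated variance pooled over the 4 strains, with 3 separate rats in each. They do not rest on the spread of the 2 strains compared alone. The median SD of the 200 ran from 0.33 in R to 0.94 in SHR. The number of arrays limits the precision of the p-values. Shares were sums of linear intensity.

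The members and lists were chosen with earlier results of these data known. Named circRNAs were the 10 with the highest score, the 5 with the smallest and 5 with the largest span of ranks, at most 5 per contrast and direction with the largest fold among called ones without overlap, the 5 with the largest F, those called in both S against R and SHR against WKY (none) or in the difference (none), and the 3 on either side of the boundary. A circRNA named outside this rule is said to be so. Lists of host genes and cell type markers were not used, because circRNA probes are not paired with genes here. Of 62 mRNA probes with an accession, 39 matched 1 gene of the RefSeq table of the assembly GRCr8, and 35 passed a background filter (over 50% of a probe's spots above background on every array of at least 1 strain).

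Same-numbered rats were checked for pairing by correlating their deviations from strain means. Only 4 of 18 pairs were above 0.1, so the numbers were not taken as pairs. Alternatives were normexp background correction (offset 50), quantile and median scaling, the deposited table, other filters on dim probes, replicate number or slide as a block, only the 2 strains compared, a variance trend with robust estimation, the mRNA probe level as a covariate and leaving out each rat.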

Additional observations from a re-analysis of the deposited data

How the results depend on the processing

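Calls for SHR against WKY stayed at 0 in all 26 alternatives, and those for S against R in 25 of 26, the exception being 40 without S rat 2 (20%, against 28.5% of all probes tested). For S against SHR the main count of 90 became 38 with normexp background correction (19%, against 5.14%, all higher in S). It was 33 with quantile normalization, 37 in the deposited table and 7 with a replicate block (3.5%, against 3.54% of all probes tested). The count was 0 with the slide as a block, with only S and SHR in the fit, and with the mRNA probe level as a covariate (0.113% of probes tested). With 1 rat left out it was 0 to 163. Added after seeing the data, it was 46 with the arrays scaled to the median of the 200 and 151 without S rat 1 and SHR rat 2. The main count of 58 for any strain became 26 with quantile normalization (13%, against 14.2%) and 38 in the deposited table (19%, against 15.5%). It was 38 with no filter on dim probes (19%, against 9.33%) and 2 with the replicate block (1%, against 2.24%). The slide as a block gave 0 (0.74% of probes tested), and the covariate gave 0 (0.193%). The count was 141 without S rat 1 and SHR rat 2 (70.5%, against 25%), and 0 to 162 when 1 rat was left out. The main count of 0 for R against WKY became 1 in the deposited table (0.5%, against 1.34% of probes tested). It was 125 with only R and WKY (62.5%, against 22.9%) and 99 without S rat 1 and SHR rat 2 (49.5%, against 18.2%). With 1 rat left out it was 0 to 71, the 71 being without SHR rat 2 (35.5%, against 12.3%). The difference between both strain pairs gave 0 to 2, the 2 being without S rat 2 (1%, against 2.36%). The replicate block changed no call in the other comparisons, all at 0. The median S minus SHR difference of the 200 was 0.0031 with quantile normalization and 0.076 in the deposited table. The median R minus WKY difference was 0.094 and 0.21 in that order. Arrays have nearly one distribution in both settings, and its part in these values was not tested. The median difference over all probes tested, near 0 in the main setting, was 0.13 for S against SHR with median scaling and 0.12 with the filter on all 12 arrays, 0.22 for S against R and -0.11 for R against WKY with normexp, and -1.18 for R against WKY when scaled to the median of the 200. The share of signal of the 200 was 43.6% with normexp, 38.5% for the 100 and 60.4% for the 400 with the highest score, of which 58 and 197 kept a rank within that number on every array. Causes of these changes were not tested. The shorter list keeps 100 of the 200 by construction, which is no check of membership.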
